A study of Mus musculus with 6 samples.

Results

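The hair follicle transcription factors considered here are Sox9, Lhx2, Tbx1, Nfatc1, Foxc1, Tcf7l1, Tcf7l2, Lef1, Dlx3 and Msx2, regulators of follicle stem cells and of the hair matrix. They were chosen by gene name, and each of the 10 names had 1 row among the 54532 genes of the count table. The table held 6 Smart-seq2 libraries, a method that copies full-length cDNA from little RNA, from C57BL/6 mice aged 4 weeks, for which the labels name no other allele and no agent. All cells came from enzymatically dissociated back-skin epidermis and were sorted as DAPI-negative, that is, viable, events, 500 to a library. The NCAM-enriched group (3 libraries, labelled Merkel cells) held cells selected for NCAM, a surface protein of the touch-sensing Merkel cells, and the bulk skin group (3 libraries) held cells taken without that selection. The question asked of these genes was whether their transcripts differed between the sorted cells and the bulk.

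Hair follicles are renewed by stem cells that rest in the bulge and the adjoining hair germ. SOX9, LHX2, TBX1, NFATC1 and FOXC1 act in these cells, where NFATC1 and FOXC1 are known for keeping them quiescent and LHX2 and SOX9 for keeping their identity. TCF and LEF factors bind DNA for the Wnt pathway: without beta-catenin they recruit repressors, and with it they switch target genes on. TCF7L1 and TCF7L2 are known mainly as the repressive members in follicle stem cells and LEF1 as the activating member in the matrix, where DLX3 and MSX2 act in hair shaft formation.

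Library totals ran from 1343190 to 4481830 counts, so that 1 count was worth 0.216 to 0.773 normalised CPM (counts scaled by library size and TMM factor). The NCAM-enriched libraries differed among themselves. The summed level of 7 fibroblast markers was 377, 33094 and 41.7 CPM in NCAM-enriched libraries 1, 2 and 3, against 10458 to 18394 CPM in bulk skin, so library 2 stood apart from the other two. Library 3 held the most basal keratinocyte transcript, with 21518 CPM over 10 markers against 5835 and 6641 CPM in libraries 1 and 2. It also held the least Merkel cell transcript, with 482 CPM over 10 markers against 1569 and 1674 CPM. Bulk skin libraries held 133 to 186 CPM of the Merkel cell markers and 9156 to 10628 CPM of the basal ones. Of the 10 Merkel cell markers, 5 were called higher in the NCAM-enriched libraries and none was at 0 there, so the label had some support from its markers. Of 11 markers of the outer (suprabasal) keratinocyte layers, 8 were called higher too, with sums of 14349 to 37324 CPM. The markers therefore do not show that these libraries held Merkel cells alone. Without any 1 of the bulk skin libraries, edgeR called no gene of either list.

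Regulatory sequence is shown for Foxc1 and Tbx1, the members whose groups did not overlap, and is the 250 bases before the RefSeq start site on the gene's own strand (GRCm38.p6), 5′ to 3′, with CpG pairs in capitals. The Foxc1 window is chr13:31806396-31806645 on the plus strand, and the Tbx1 window is chr16:18590672-18590921 on the minus strand. The last 13 bases of the Foxc1 window lie inside the first exon that GENCODE gives.

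Foxc1: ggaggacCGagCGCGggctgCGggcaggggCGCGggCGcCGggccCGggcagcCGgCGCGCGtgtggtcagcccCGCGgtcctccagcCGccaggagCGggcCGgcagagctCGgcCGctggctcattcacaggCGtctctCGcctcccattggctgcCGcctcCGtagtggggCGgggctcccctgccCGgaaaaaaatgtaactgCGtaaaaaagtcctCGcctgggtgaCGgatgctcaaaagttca
Tbx1: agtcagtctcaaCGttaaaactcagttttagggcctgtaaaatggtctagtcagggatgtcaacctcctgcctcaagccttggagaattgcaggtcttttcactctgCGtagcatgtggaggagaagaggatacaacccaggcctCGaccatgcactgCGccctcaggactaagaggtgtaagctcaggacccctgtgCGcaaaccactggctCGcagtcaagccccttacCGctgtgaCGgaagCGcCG

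The Foxc1 window was rich in CpG pairs, with 29 of them and 70.8% G or C, while the Tbx1 window had 10 and 54.4%. The median over 32817 RefSeq windows of the same length was 6 pairs and 52.4%, with quartiles of 2 and 16 pairs. Windows were found for 5 further members, of which Lhx2, Tcf7l1 and Tcf7l2 had 25, 29 and 30 CpG pairs, Msx2 had 16 and Lef1 had 11. The Msx2 window lies wholly inside the gene that GENCODE gives, as do the last 209 bases of the Tcf7l1 window. Short binding words of the members' own families were then sought on both strands. Of these, the NFAT word GGAAAA, held by 20.4% of all windows, occurred in the Foxc1 window, and the homeodomain word TAATTA, held by 4.85%, in the Msx2 window. The Sox word ACAATG, held by 10.7%, occurred at 2 places in the Tcf7l2 window. None of the 7 windows held the TCF/LEF word CTTTGA (13.8% of all windows), the forkhead word TGTTTAC (3.16%) or the T-box word TCACAC (12.3%). The letters alone say nothing of binding.

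Across the table, 13157 genes had enough counts to be tested by edgeR's quasi-likelihood test, among them 9 of the 10 members, all but Dlx3. At a Benjamini-Hochberg adjusted p of at most 0.05, 0 of these 9 were called, where 2.59% of all genes tested were called (1.04% higher and 1.55% lower in NCAM-enriched libraries). At an unadjusted p under 0.05 there were 2 members, 22.2% of the 9, against 18.9% of all genes. The groups did not overlap for 2 of the 10 members, and for 30.4% of all genes tested. With DESeq2, Foxc1 was called higher and Tbx1 lower, where it called 12.1% of all genes (5.02% higher and 7.05% lower). With limma-voom, Tbx1 alone was called, and it was lower, as were 6.45% of all genes. Tbx1 passed the filter through the bulk skin libraries alone, so its calls are given as values and support no difference. The fitted log2 fold change (NCAM-enriched over bulk skin) was above 0 for 5 members and below 0 for 4, with a median of 0.45, against a median of -0.07 over all genes tested. In bulk samples, fewer cells of a type and less RNA per cell cannot be told apart.

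**Figure D1:**
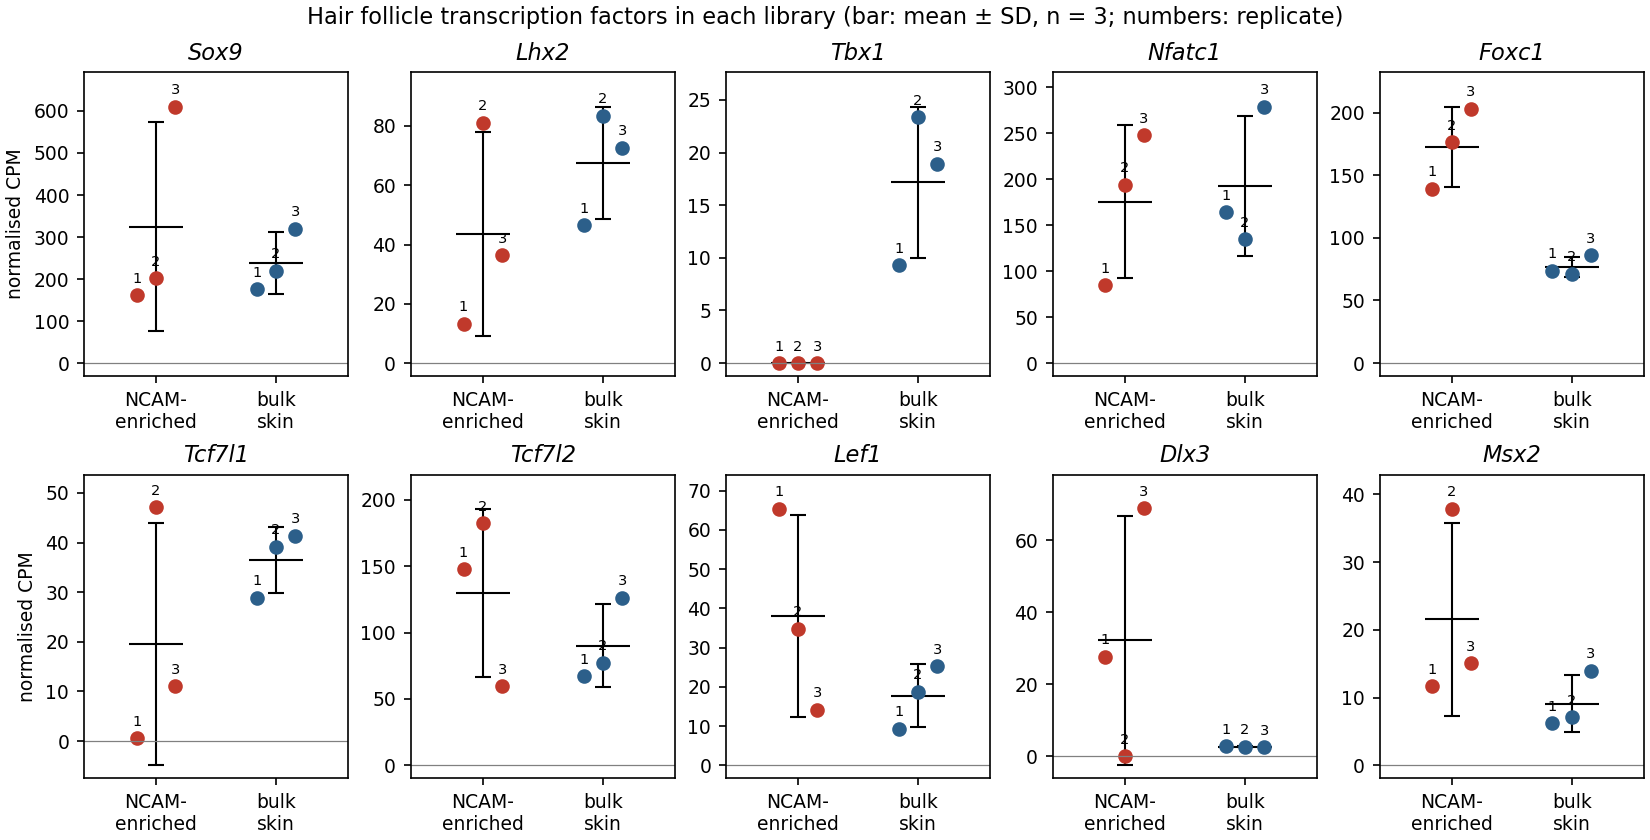
Normalised CPM of the 10 hair follicle transcription factors (vertical axis, 1 panel a gene) in the NCAM-enriched (red) and bulk skin (blue) libraries, with replicate numbers beside the points and bars for the mean ± SD (n = 3). The groups do not overlap for Foxc1 (139 to 203 against 71.1 to 86.1 CPM) and Tbx1 (0 against 9.31 to 23.3 CPM), and they overlap for the other 8.

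Foxc1, a forkhead factor of bulge stem cells on chr13:31806633-31812476, varied little within each group. NCAM-enriched libraries 1, 2 and 3 had 139, 176 and 203 CPM of it (262, 228 and 715 counts), and bulk skin libraries had 73.9, 71.1 and 86.1 CPM (238, 329 and 314 counts). Every NCAM-enriched library lay above every bulk skin library, a pattern seen in 11.1% of all genes tested. The mean was 173 ± 32.0 CPM (SD, n = 3) against 77.0 ± 7.96 CPM, and the fitted difference was 2.24-fold (log2 fold change 1.17 ± 0.35, SE). By edgeR it missed the threshold (adjusted p = 0.107), with 0.0281 by DESeq2 and 0.0592 by limma-voom, and over all alternatives the adjusted p ran from 0.0281 to 0.351. Leaving out each library in turn kept the log2 fold change between 0.96 and 1.29.

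Tbx1, a T-box factor of bulge stem cells on the minus strand of chr16:18580979-18590671, had no count in any NCAM-enriched library. Bulk skin libraries had 9.31, 23.3 and 18.9 CPM of it (30, 108 and 69 counts). The level in bulk skin, 17.2 ± 7.17 CPM (SD, n = 3), was above the level of 3 counts in each NCAM-enriched library (0.851 to 2.32 CPM). Against 3 counts over the whole NCAM-enriched group, which correspond to 0.448 CPM, Tbx1 was at least 40.2-fold lower there than in the pooled bulk skin counts (207 counts, 18.0 CPM). That bound was 19.1-fold without NCAM-enriched replicate 3, the deepest library of its group, and 28.9- to 47.8-fold without any other library. Groups with every NCAM-enriched library below every bulk skin library made up 19.3% of all genes tested, and 1.77% (233 genes) had no count in the NCAM-enriched libraries. Tbx1 passed the filter on low counts through the 3 bulk skin libraries alone, so it could be tested only because it was high there. Its calls are therefore given as values and support no difference. The adjusted p by edgeR was 0.0575, just over the threshold, and it ran from 0.00017 to 0.270 over the 15 alternatives, of which 5 called it. These were DESeq2, limma-voom, edgeR on all genes with a count (0.00686, where 2.66% of genes were called lower), and the fits without NCAM-enriched replicate 2 (0.0269, where 4.12% were) or 3 (0.0407, where 4.9% were). With any other library left out it was not called (0.258 to 0.270 for the bulk skin libraries).

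Markers of vascular and immune cells were set beside Tbx1. Of 5 endothelial markers tested, 0 were called by edgeR and 3 were lower by DESeq2, and Cdh5, Tek and Emcn were at 0 in all NCAM-enriched libraries. The summed level of the 7 endothelial genes was 12.4 to 35.1 CPM in NCAM-enriched and 66.4 to 97.1 CPM in bulk skin libraries. Of 11 T and NK cell markers, 8 were called lower, with sums of 42.0 to 238 CPM against 4563 to 4950 CPM, and Cd3d and Cd2 were at 0. Of 9 Langerhans and myeloid markers, 8 were lower too, with 26.3 to 365 CPM against 11031 to 18987 CPM, and Itgax and Cd86 were at 0. Tek, Emcn, Cd3d, Cd2, Itgax and Cd86, at 0 in the NCAM-enriched libraries, passed the filter through bulk skin alone. So did Nkg7, Trdc, Cd207 and Csf1r, with 1 to 3 counts in the NCAM-enriched group. The counts of calls above are therefore given as values and support no difference. The part of vascular and immune cells in the Tbx1 levels was not tested.

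Sox9, an HMG-box factor needed for the follicle stem cell pool, on chr11:112782224-112787760, was the member with the most transcript for its length in both groups. NCAM-enriched libraries 1, 2 and 3 had 161.5, 201.7 and 610.4 CPM and bulk skin libraries had 176.0, 219.4 and 319.7 CPM. Libraries 1 and 2 lay within or just under the bulk range, and library 3 lay above all others. The mean was 325 ± 248 CPM (SD, n = 3) against 238 ± 73.7 CPM. The log2 fold change was 0.45 ± 0.54 (SE; edgeR adjusted p = 0.726) and turned to -0.46 (0.487) without NCAM-enriched replicate 3. That library was also the highest for the basal keratinocyte markers and for the summed bulge, germ and upper follicle list (41831 CPM, with 17322 and 8623 CPM in libraries 1 and 2 and 8083 to 10329 CPM in bulk skin). The part of these cells in the Sox9 level was not tested.

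Lhx2, a LIM-homeodomain factor on chr2:38339281-38369733, had 13.3, 81.1 and 36.3 CPM in NCAM-enriched libraries 1, 2 and 3. Bulk skin libraries had 46.6, 83.4 and 72.7 CPM. NCAM-enriched library 2 reached the bulk range, while libraries 1 and 3 lay under it. The mean was 43.6 ± 34.5 CPM against 67.6 ± 19.0 CPM (SD, n = 3), with a log2 fold change of -0.64 ± 0.66 (SE; edgeR adjusted p = 0.668). Without NCAM-enriched replicate 2, the library rich in fibroblast markers, the log2 fold change was -1.44 (0.159), and without replicate 1 it was -0.23 (0.871).

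Nfatc1, the calcineurin-regulated factor of bulge stem cells, on the minus strand of chr18:80606205-80713071, was spread alike in both groups. NCAM-enriched libraries had 84.5, 193.9 and 247.7 CPM and bulk skin libraries had 163.9, 134.7 and 279.1 CPM. The ranges overlapped over most of their length. Means were 175 ± 83.2 and 193 ± 76.4 CPM (SD, n = 3), and the log2 fold change was -0.13 ± 0.48 (SE; edgeR adjusted p = 0.921). Its sign turned without NCAM-enriched replicate 1 (0.19) or bulk skin replicate 3 (0.18), so no direction was given by these libraries.

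Regulators of NFAT nuclear entry gave no call by edgeR among 9 tested of 10, with a median log2 fold change of -0.17. Rcan1, an inhibitor of calcineurin and itself an NFAT target, had 178 ± 24.9 CPM against 53.7 ± 19.9 CPM (log2 fold change 1.73 ± 0.42, adjusted p = 0.0668), and DESeq2 called it, the 1 call it made in the list. The catalytic subunit gene Ppp3cc had 5.70 ± 3.55 CPM against 23.2 ± 6.75 CPM (-2.04 ± 0.97, 0.302). Ppp3ca, the highest of the list in CPM, had 389 ± 201 CPM against 285 ± 31.6 CPM (0.45 ± 0.42, 0.634).

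**Figure D2:**
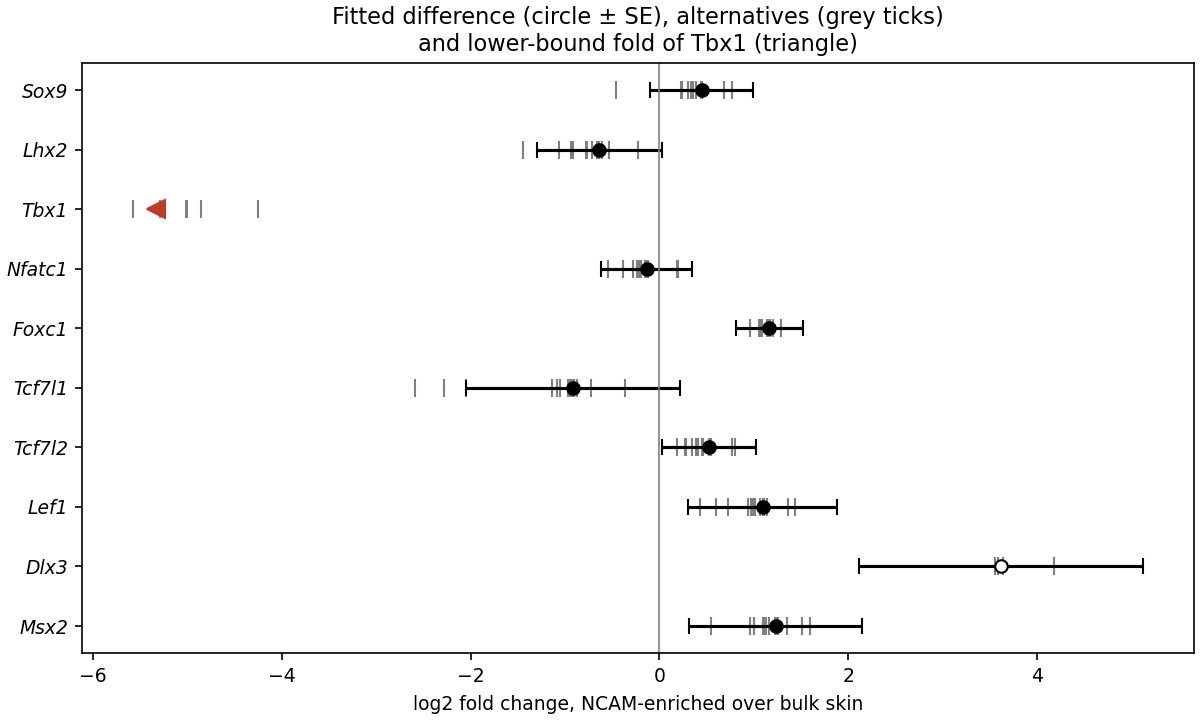
Log2 fold change of NCAM-enriched over bulk skin (horizontal axis) for each member (vertical axis): circles are the edgeR fit with its SE, the open circle for Dlx3 is the fit with at least 10 counts in 3 libraries, grey ticks are the alternatives, and the red triangle is the bound for Tbx1, whose true change may lie further left. For Sox9 and Nfatc1 ticks lie on both sides of 0, and for Foxc1 they stay near 1.17.

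Of the 3 TCF/LEF members, Tcf7l1 varied most among the NCAM-enriched libraries. The gene lies on the minus strand of chr6:72626378-72789254, and 179 bases of its exons (4.56%) overlap the antisense gene Gm15401, whose reads cannot be told apart here. NCAM-enriched libraries 1, 2 and 3 had 0.531, 47.1 and 11.1 CPM (1, 61 and 39 counts), and bulk skin libraries had 28.9, 39.1 and 41.4 CPM. Library 2 lay above the bulk range and libraries 1 and 3 below it. The log2 fold change was -0.91 ± 1.13 (SE; edgeR adjusted p = 0.732), and it was -2.59 (0.150) without NCAM-enriched replicate 2, -0.37 (0.846) without replicate 1, the library with 1 count, and -2.29 by limma-voom.

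Tcf7l2, on chr19:55741820-55933654, had 147.7, 182.3 and 59.6 CPM in NCAM-enriched libraries and 67.1, 77.4 and 126.1 CPM in bulk skin. NCAM-enriched libraries 1 and 2 lay above the bulk range and library 3 under it. The mean was 130 ± 63.3 CPM against 90.2 ± 31.5 CPM (SD, n = 3; log2 fold change 0.52 ± 0.50, SE; edgeR adjusted p = 0.635). The log2 fold change was 0.18 without NCAM-enriched replicate 2 and 0.80 without replicate 3.

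Lef1, on chr3:131110471-131224356, had 65.4, 34.8 and 14.2 CPM in NCAM-enriched libraries and 9.31, 18.8 and 25.2 CPM in bulk skin. Libraries 1 and 2 were above the bulk range and library 3 within it. The mean was 38.1 ± 25.7 CPM against 17.8 ± 8.0 CPM (SD, n = 3), with a log2 fold change of 1.09 ± 0.79 (SE; edgeR adjusted p = 0.515), which was 0.43 without NCAM-enriched replicate 1. Of its exonic bases, 1208 (13.7%) overlap the antisense gene Gm43352.

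The remaining gene of the family, Tcf7, encodes a factor that T cells use too. It had 45.2, 59.5 and 30.1 CPM in NCAM-enriched libraries and 137.5, 164.9 and 133.5 CPM in bulk skin. The groups did not overlap, as for 19.3% of all genes tested in this direction. The log2 fold change was -1.70 ± 0.41 (SE; edgeR adjusted p = 0.0661), and DESeq2 called it lower (0.00573). Per kilobase of exon, Tcf7 made up 43.3 ± 6.42% of the summed family level in NCAM-enriched libraries and 72.1 ± 6.46% in bulk skin (SD, n = 3). Tcf7l2 made up 35.1 ± 5.26% and 13.3 ± 4.30%. Lef1 made up 10.5 ± 6.35% and 2.58 ± 1.05%, and Tcf7l1 10.99 ± 10.02% and 12.0 ± 1.34%.

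The share of Lef1 and Tcf7 together, the members known mainly as activators, was 59.2, 44.8 and 57.6% in NCAM-enriched libraries 1, 2 and 3 and 78.1, 77.6 and 68.3% in bulk skin. All 3 NCAM-enriched libraries lay below all 3 bulk skin libraries, with a difference of -20.8 percentage points (p = 0.1 by an exact permutation test of the means, two-sided, which can go no lower with 3 libraries a group). It was -23.9 to -16.2 points with any library left out. Within this sum the fitted change was above 0 for Lef1 and below 0 for Tcf7, and edgeR called neither. T and NK cell markers, given above, had a lower sum in every NCAM-enriched library than in any bulk skin library. The part of T and NK cells in this share was not tested.

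**Figure D3:**
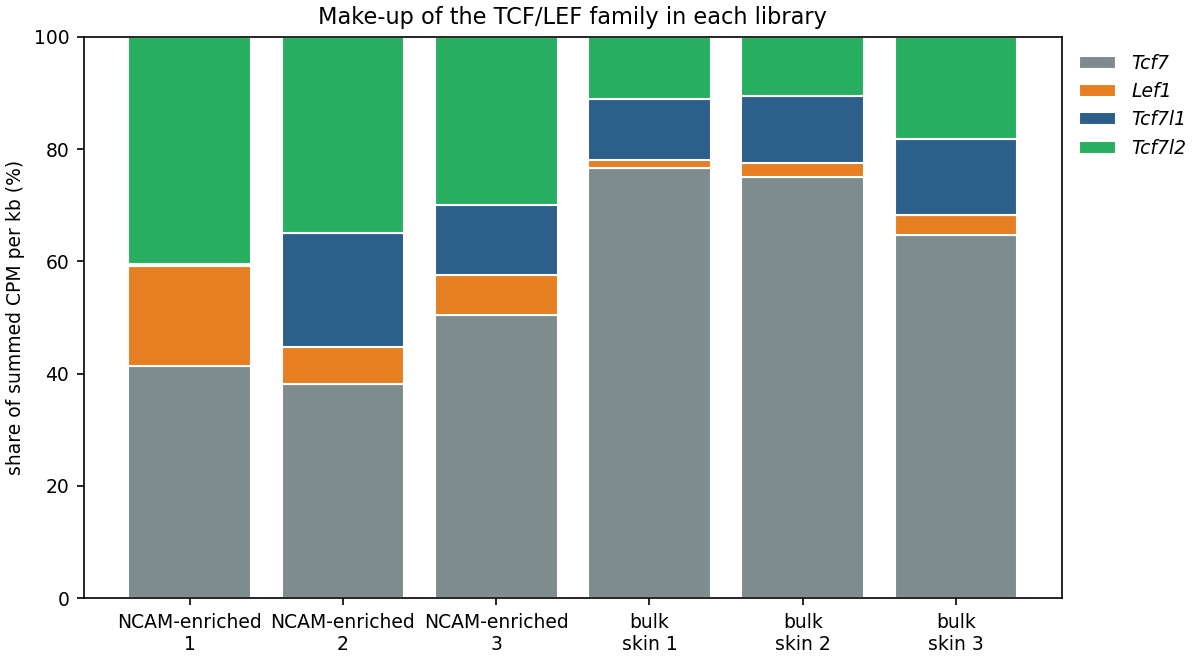
Share of each TCF/LEF gene in the family's summed CPM per kilobase of exon (vertical axis, percent) in each of the 6 libraries (horizontal axis). Tcf7 takes 38.15 to 50.5% in the NCAM-enriched libraries and 64.7 to 76.5% in bulk skin, and Tcf7l2 takes 29.9 to 40.5% and 10.5 to 18.3%.

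Proteins that work with TCF/LEF factors gave 0 calls by edgeR among 15 genes, with a median log2 fold change of 0.30. Bcl9l, a beta-catenin co-activator, had 332 ± 29.0 CPM in NCAM-enriched libraries against 90.8 ± 42.3 CPM in bulk skin (1.87 ± 0.45, adjusted p = 0.0653), and DESeq2 called it (0.00369), its 1 call in the list. The co-repressor gene Tle3 had 184 ± 85.6 CPM against 78.6 ± 33.1 CPM (1.22 ± 0.48, 0.211). Ctnnb1, which encodes beta-catenin, had 234 ± 91.1 CPM against 297 ± 33.6 CPM (-0.34 ± 0.38, 0.698).

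Genes known as Wnt targets gave 0 calls by edgeR and by DESeq2 among 10 tested of 12, with a median log2 fold change of 0.54. Axin2, the feedback inhibitor that serves as a common Wnt readout, had 58.5, 81.9 and 166 CPM in NCAM-enriched libraries and 19.6, 51.9 and 36.7 CPM in bulk skin. Those values did not overlap, a pattern seen in this direction in 11.1% of all genes tested. The change was 1.50 ± 0.57 (SE; edgeR adjusted p = 0.195). Znrf3, a ubiquitin ligase that removes Wnt receptors, had 109 ± 24.3 CPM against 52.4 ± 14.9 CPM (1.05 ± 0.43, 0.225), also without overlap. Axin2 and Znrf3 were named for the smallest p in the list, so their values say nothing of the list as a whole. Tnfrsf19, the highest in CPM, had 127 ± 82.8 CPM against 86.9 ± 19.1 CPM (0.55 ± 0.57, 0.674).

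Dlx3, a homeobox regulator of the hair shaft and of the outer epidermal layers, on chr11:95120119-95125296, had both high values and a 0 among the NCAM-enriched libraries. NCAM-enriched libraries 1, 2 and 3 had 27.6, 0 and 69.0 CPM (52, 0 and 243 counts), while bulk skin libraries had 2.79, 2.59 and 2.47 CPM (9, 12 and 9 counts). Libraries 1 and 3 lay far above bulk skin and library 2 had no count, although its 3-count level of 2.32 CPM was close to the bulk skin level. The mean was 32.2 ± 34.7 CPM against 2.62 ± 0.165 CPM (SD, n = 3). It was left out of the test because its CPM without the TMM factor, which the filter used, reached the required 2.94 in only 2 libraries. With at least 10 counts in 3 libraries as the filter, the log2 fold change was 3.62 ± 1.51 (SE; edgeR adjusted p = 0.234), and with all genes that had a count it was 3.58 (0.0590). Without NCAM-enriched replicate 2, the library with no count, Dlx3 passed the filter through the NCAM-enriched libraries where it was high, so its call there (4.18, 0.0118, where 3.09% of 14384 genes were called higher) is given as a value and supports no difference.

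Suprabasal keratinocyte markers, genes of the outer epidermal layers, were higher in the NCAM-enriched libraries. Of 11, 8 were called higher, none was at 0 in the NCAM-enriched libraries, and their sum was 37324, 14349 and 19346 CPM in NCAM-enriched libraries 1, 2 and 3 against 1572 to 1760 CPM in bulk skin. Library 2 was the lowest of its group for these markers as for Dlx3, but its sum lay well above bulk skin. The highest of the group was library 1 for these markers and library 3 for Dlx3. The part of these cells in the Dlx3 level was not tested.

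Msx2, a homeobox gene of the matrix and hair shaft on the minus strand of chr13:53466884-53473074, had 20 to 53 counts in a library. NCAM-enriched libraries had 11.7, 37.9 and 15.04 CPM and bulk skin libraries had 6.21, 7.13 and 14.0 CPM. Library 2 of the NCAM-enriched group was the highest, and library 1 lay within the bulk range. The mean was 21.5 ± 14.2 CPM against 9.11 ± 4.25 CPM (SD, n = 3), with a log2 fold change of 1.23 ± 0.91 (SE; edgeR adjusted p = 0.531), which was 0.54 without NCAM-enriched replicate 2.

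Transcripts for proteins of the structures that these matrix factors build were scarce in both groups. Of 22 inner root sheath and hair shaft genes with a row in the table, 3 passed the filter and 0 were called by edgeR. Their median log2 fold change of -1.05 rests on these 3 alone. The set tested changed without NCAM-enriched replicate 2 (7 genes, 1 called higher and 0 lower) or replicate 3 (4 genes, 1 higher and 1 lower). The summed level of the list was 8.499 to 237 CPM in NCAM-enriched libraries and 67.4 to 119 CPM in bulk skin, and 4 genes had no count in any library. Krt83, a hair shaft keratin, had 3 counts in the NCAM-enriched libraries together and 203 in bulk skin (edgeR adjusted p = 0.0756), and DESeq2 called it lower. Krt83 passed the filter through the bulk skin libraries alone, so that call supports no difference. The shaft keratin gene Krt32 had 28.2, 0 and 47.1 CPM against 64.0, 42.6 and 51.3 CPM (-1.05 ± 1.12, 0.681).

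Set side by side per kilobase of exon, the members stood in partly different orders in the 2 groups, with Sox9 first in both. In the NCAM-enriched libraries the mean CPM per kilobase was 78.5 ± 60.1 for Sox9, 29.6 ± 5.47 for Foxc1, 23.5 ± 11.1 for Nfatc1 and 14.8 ± 7.21 for Tcf7l2 (SD, n = 3). Dlx3 at 12.3 ± 13.3, Lhx2 at 9.92 ± 7.85, Msx2 at 6.57 ± 4.34, Tcf7l1 at 4.99 ± 6.23 and Lef1 at 4.34 ± 2.93 followed, and Tbx1 was at 0. The ranges overlapped between 7 of the 9 pairs of neighbours in this order, and did not between Sox9 and Foxc1 or between Lef1 and Tbx1. In bulk skin the order was Sox9 (57.6 ± 17.8), Nfatc1 (25.8 ± 10.2), Lhx2 (15.4 ± 4.32), Foxc1 (13.2 ± 1.36), Tcf7l2 (10.3 ± 3.59), Tcf7l1 (9.29 ± 1.70), Tbx1 (4.89 ± 2.04), Msx2 (2.78 ± 1.29), Lef1 (2.02 ± 0.911) and Dlx3 (1.004 ± 0.0632), again with overlap in 7 of 9 pairs. Dlx3 stood in the middle of the first order and at the end of the second, while Tbx1 was at the end of the first.

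The libraries of the NCAM-enriched group did not share 1 profile of these factors. Library 1 was the highest of the 3 for Lef1, library 2 for Lhx2, Tcf7l1, Tcf7l2 and Msx2, and library 3 for Sox9, Nfatc1, Foxc1 and Dlx3. In bulk skin, library 3 was the highest for 7 members. All 9 members with counts in both groups had a larger coefficient of variation in the NCAM-enriched libraries, with a median of 67.6% against 30.9%. The same held for 81.7% of 12910 genes tested, at medians of 70.1% and 31.9%, so the members were spread much like other genes.

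**Figure D4:**
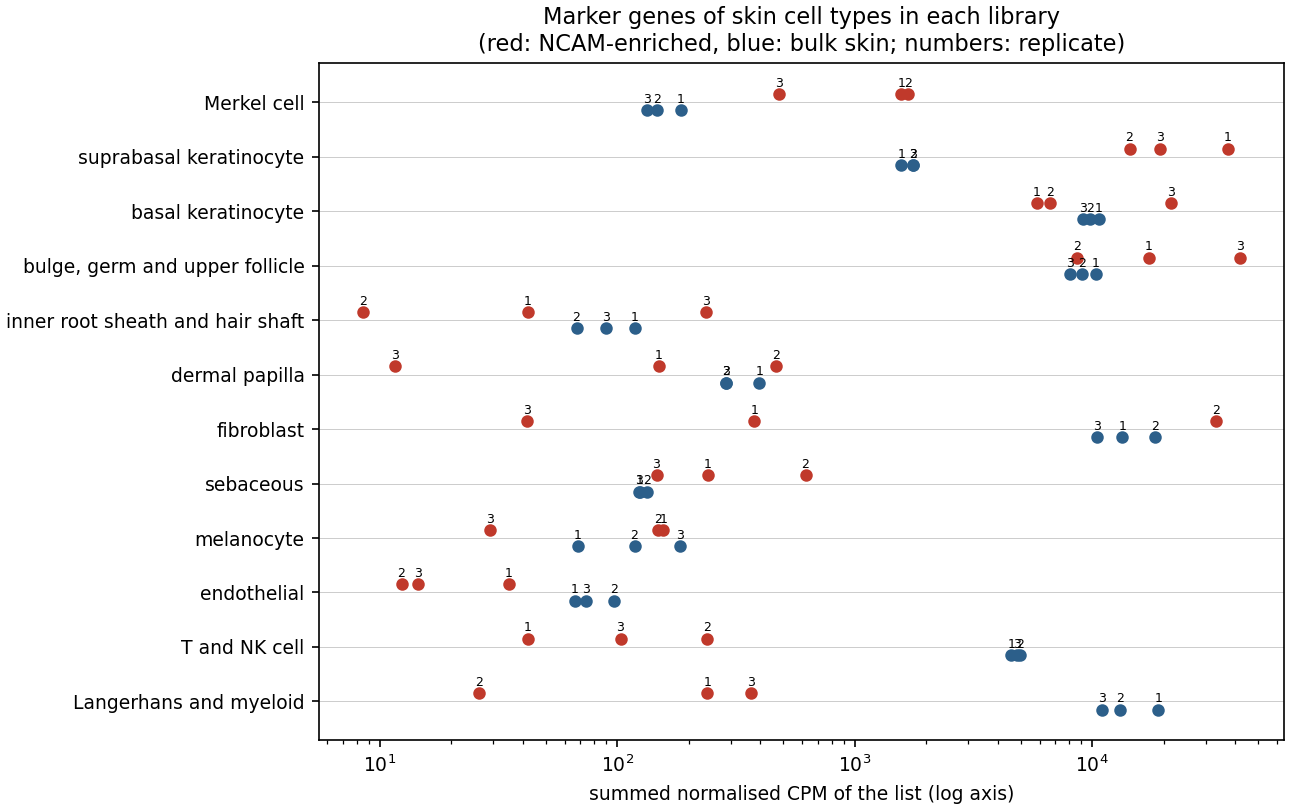
Summed normalised CPM of marker lists (vertical axis) in each library (horizontal axis, log scale; red NCAM-enriched, blue bulk skin, numbers are replicates). NCAM-enriched library 2 stands out for fibroblast genes (33094 CPM). Library 3 stands out for basal keratinocyte genes (21518 CPM) and for the bulge, germ and upper follicle list (41831 CPM).

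Since library 2 led for Lhx2, Tcf7l1, Tcf7l2 and Msx2, dermal markers were set beside them. The 8 dermal papilla genes, of the mesenchymal cells under the matrix, summed to 150, 467 and 11.6 CPM in NCAM-enriched libraries 1, 2 and 3 and to 287 to 396 CPM in bulk skin, and 0 of 7 tested were called (median -0.21), with Corin at 0 in the NCAM-enriched libraries. Of these, Crabp1 had 56.9, 326 and 5.39 CPM and Vcan had 36.1, 33.2 and 0.568 CPM. None of the 7 fibroblast genes was called either (median -1.28), and none was at 0 in all 3 NCAM-enriched libraries. In NCAM-enriched replicate 2, Col1a2 had 15390 CPM against 148 and 10.2 CPM in the others. Without that replicate, 6 of 7 fibroblast genes were called lower, where 4.12% of all genes tested were. In that fit Lum, at 0 in the remaining NCAM-enriched libraries, passed the filter through bulk skin alone, so this count is given as a value and supports no difference. Dcn (24.97, 774 and 5.39 CPM) and Lum (0, 44.8 and 0 CPM) lay, unlike Col1a2, below every bulk skin library in all 3. Sebaceous genes summed to 241, 620 and 146 CPM against 123 to 133 CPM, with 0 of 7 called by edgeR and 2 by DESeq2 (Soat1 and Cidea, both higher; median 1.73). Their part in the members' levels was not tested.

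Among 25 tested of 27 other transcription factors of the follicle, 2 were called higher and 0 lower by edgeR (median 0.87), while DESeq2 called 5 higher and 1 lower. Sox21, an HMG-box factor needed for hair shaft cuticle differentiation, rose from 40.4 ± 12.4 CPM in bulk skin to 197 ± 66.7 CPM (2.29 ± 0.43, adjusted p = 0.0329). Ovol1, a zinc finger factor of differentiating keratinocytes as well as of the follicle, rose from 10.8 ± 5.09 to 79.6 ± 26.6 CPM (2.88 ± 0.61, 0.0479). Neither was called without any 1 of the bulk skin libraries (0.178 to 0.242), nor was Ovol1 without NCAM-enriched replicate 1 (0.0559) or 3 (0.0518). Nfib, a stem cell factor of the bulge, had 570 ± 173 and 568 ± 193 CPM (0.00 ± 0.41, 0.997).

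Of 34 close relatives of the members, 12 had enough counts to be tested (median 0.23). Lhx3, a LIM-homeodomain relative of Lhx2, was the 1 called, at 99.9, 28.6 and 24.4 CPM in NCAM-enriched libraries and 3.10, 3.46 and 1.65 CPM in bulk skin (4.20 ± 0.90, adjusted p = 0.0496), and 6 of the 15 alternatives called it. It was not called without NCAM-enriched replicate 1 (0.126) or any bulk skin library (0.226 to 0.270). The T-box gene Tbx18 had, as Tbx1 did, no count in the NCAM-enriched libraries and 55 in bulk skin (0.0878). Nfat5, the relative highest in CPM, had 130 ± 23.4 against 109 ± 38.6 CPM (0.26 ± 0.40, 0.796). In all, 10 of the 34 had no count in the NCAM-enriched libraries and 5 had none in any library. Sox8, Lhx8, Tbx5, Tbx18 and Tbx21 had counts (7 to 55) in bulk skin alone. Lhx4, Lhx6, Lhx9, Tbx2, Tbx4, Tbx19, Tbx20, Dlx2 and Msx3 had counts (2 to 46) in NCAM-enriched libraries alone.

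Genes that mark where in the follicle cells lie split in direction. Of 14 bulge, germ and upper follicle genes tested of 15, 1 was called higher and 1 lower (median -0.36). Krt17, a keratin of follicle and stressed epidermis, rose to 6877, 4914 and 17761 CPM from 980 to 1232 CPM in bulk skin (3.15 ± 0.65, adjusted p = 0.0437). Lgr6, a receptor of stem cells of the upper follicle, fell to 33.9 ± 9.30 CPM from 203 ± 41.2 CPM (-2.58 ± 0.41, 0.0195). Neither was called without any 1 of the bulk skin libraries (0.108 to 0.282), nor was Krt17 without NCAM-enriched replicate 1 (0.0694). Krt15, a keratin listed for the bulge, had 4574, 1902 and 10922 CPM against 3965 to 6739 CPM (0.09 ± 0.68, 0.963). Its highest value was in library 3, as for Sox9 and for the basal keratinocyte marker Krt5 (9004 CPM there).

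For the 7 members with a mean of at least 20 CPM, the genes with the most similar profile over the 6 libraries were found among 8548 genes of that level. They are given as a description, since with 6 points in 2 groups many genes correlate highly. Foxc1 was most like Med25 (Pearson r of log2 CPM 0.996), Tcf7l1 like Zdhhc18 (0.995) and Lhx2 like Frmd4a (0.993), and 261, 217 and 144 genes passed an r of 0.9 with these members. For Tcf7l2 the closest was Ireb2 (0.984, with 92 genes past 0.9), and for Lef1 it was Galk1 (0.968, with 53). Sox9 and Nfatc1 had the fewest similar genes, 25 and 19, led by Zfp516 (0.977) and Maml1 (0.965).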

How the data were processed

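The values deposited by the authors are whole-number read counts for each gene, not normalized. They were made, according to the methods, by clipping with bbduk, removing abundant sequences with bbmap, aligning to GRCm38 with STAR and counting with featureCounts (STAR, featureCounts and the build also stand in the submitters' processing notes). Which annotation release and strand setting were used is not given in the sources used here. Smart-seq2 does not mark the strand. Replicates were sorted into a multi-well plate, and nothing says that they came from separate animals, so p-values measure only the spread between these libraries. There were no molecular identifiers, so bounds and floors cover counting error only.

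Groups came from the labels. The tests were run with edgeR 4.0.16 under R 4.3.3 (genes kept by filterByExpr, library sizes over the genes kept, TMM factors, quasi-likelihood F-test, Benjamini-Hochberg over 13157 genes, called at 0.05; biological coefficient of variation 0.744). SE was derived from the test, as the size of the log2 fold change over the root of F. A fold against no counts is a bound against 3 counts over the group. Positions and exonic lengths came from GENCODE, in which 54495 gene IDs were found and 37 were not, and start-site sequence from RefSeq, which was used for 7 members. Alternatives were DESeq2 1.42.0, limma-voom (limma 3.58.1), RLE and upper-quartile factors, library totals, other count filters, robust dispersion, a replicate block and each library left out. The script was tested on simulated data.

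The members and lists were chosen with earlier results of these data known. Named genes are the members and, from each list, the 2 tested genes of smallest p and the one highest in CPM. Tbx18, the other relatives with counts in only 1 group, and the marker genes given as being at 0 were named after their values were seen. Skeletal muscle markers were listed too, and the 1 tested, Acta1, had 264, 160 and 6.24 CPM against no count. Acta1 passed the filter through the NCAM-enriched libraries alone, so its call supports no difference. Melanocyte markers gave 0 calls of 3 tested (29.2 to 156 CPM against 68.3 to 184 CPM in sum), and basal keratinocyte markers 0 of 10 (median -0.03). Libraries with the same replicate number were not paired in the test, because their deviations from the group means correlated at only 0.0226, 0.000250 and -0.00436. Figures were drawn with matplotlib 3.10.9.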

Additional observations from a re-analysis of the deposited data

How the results depend on the processing

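The number of hair follicle transcription factors called higher went from 0 to 1 with DESeq2 (Foxc1), and the number called lower from 0 to 1 with DESeq2, limma-voom and all genes with at least 1 count (Tbx1 each time). With a library left out both ran from 0 to 1, where the 1 higher was Dlx3, which is not among the 9 tested with all libraries, and the 1 lower was Tbx1. The Dlx3 and Tbx1 calls support no difference, as each gene passed the filter through the group where it was high. Over the whole table, 137 genes were called higher and 204 lower. DESeq2 gave 661 and 928, limma-voom 351 and 849, and all genes with a count 769 and 741. With the replicate block, 50 and 92 were called, and no member was (adjusted p of 0.201 for Tbx1 and 0.251 for Foxc1). The labels do not say whether same-numbered libraries share a source. Leaving out 1 library gave 0 to 1099 higher and 13 to 733 lower. The 0 came by edgeR without bulk skin replicate 1 or 2, where 2115 and 2237 genes had an unadjusted p under 0.05. The sign turned for Sox9 without NCAM-enriched replicate 3 (-0.46, range -0.46 to 0.77) and for Nfatc1 without NCAM-enriched replicate 1 (0.19) or bulk skin replicate 3 (0.18, range -0.54 to 0.19). The other 7 members tested kept their sign under all 15 alternatives. The median change of all genes moved from -0.07 to -0.37 with limma-voom and -0.36 with the replicate block. The difference in the Lef1 and Tcf7 share kept its sign under every alternative that was run for it. Counts of markers called also moved with a library left out: suprabasal higher calls (8) ran from 0 to 10 and Merkel cell ones (5) from 0 to 9, both at 0 without any 1 of the bulk skin libraries, while T and NK cell lower calls (8) ran from 4 to 11 and Langerhans and myeloid ones (8) from 1 to 9, lowest without a bulk skin library. The cause of these changes was not tested. The T and NK cell and the Langerhans and myeloid calls are given as values, since several of these markers passed the filter through bulk skin alone. Depth limits what can be said of levels near 3 counts, which correspond to 0.649 to 2.32 CPM in a library, as for Dlx3 in NCAM-enriched library 2 and Tcf7l1 in NCAM-enriched library 1.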
